A study of Mus musculus with 2 samples.

Results

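The genes described here encode the enzymes that crosslink proteins of the extracellular matrix, the transglutaminases and the lysyl oxidases. They were chosen by gene symbol: Tgm1, Tgm2, Tgm3 and F13a1 for the transglutaminases, and Lox, Loxl1, Loxl2, Loxl3 and Loxl4 for the lysyl oxidases. Of these 9 genes 8 had a probe set annotated to that gene alone, 18 of the 45101 probe sets on the array and 8 of its 18193 named genes. Loxl2 had none and is not analysed here. The cells were superficial zone cells, the flattened chondrocytes at the surface of articular cartilage, taken from the femur and tibial joint of ICR mice aged 4 days. They were grown in DMEM with 10% serum and kept for 24 h with 10 μM retinoic acid (n = 1 culture) or without it as the control (n = 1 culture). Each culture gave RNA for 1 Affymetrix array of the whole mouse genome. The labels do not say how many animals each culture held or whether both came from the same preparation, so a difference can include one between preparations.

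Transglutaminases join a glutamine of one protein to a lysine of another, and lysyl oxidases oxidise lysines of collagen and elastin so that chains bond to each other. Tissue transglutaminase, the product of Tgm2, is expressed in many cell types, cartilage included, and its gene is a long-known target of retinoic acid. Lysyl oxidase crosslinks give the collagen network of cartilage its tensile strength.

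With 1 array per group there is no replicate spread, so no test was run, no p-value is given, and every fold describes these 2 arrays. Values are MAS5 signals, a linear brightness per probe set, and signals of different probe sets are not compared with each other. Sums of signals over a marker list include values read as not measured and are weighted to the brightest probe sets. A value at or below the array's own median signal, 29.7 with retinoic acid and 26.5 in control, was read as not measured. A gene above it on both arrays has a fold, and a gene above it on 1 array has only a bound. A gene was represented by its brightest probe set, and a ratio of 2-fold or more was counted as higher or lower. The trimmed mean signal was 192 with retinoic acid and 182 in control. The only repeat measure comes from genes read by more than 1 probe set: within such a gene the log2 ratios had an SD of 0.30, pooled over 4993 genes. It covers scatter within the same RNA and no variation between cultures. Rarb, the gene of a retinoic acid receptor and a known target of the treatment, had a signal of 1929 with retinoic acid, against 5.73 (not measured) in control. Cyp26b1, whose product breaks down retinoic acid, had a signal of 4624 with retinoic acid and 40.3 in control.

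Promoter sequence for the members, from RefSeq (GRCm38.p6), was at hand for 4 of the 9 genes: Loxl4, F13a1, Tgm1 and Tgm3. The windows shown are the 250 bases before the annotated start, 5′ to 3′ on the gene's strand. Loxl4 is shown because it was the member with the lowest ratio, and Tgm3 because it was read at background on both arrays and its window has the opposite make-up. Capitals mark matches, on either strand, to GGGCGG (the GC box bound by Sp1-type factors), TATAAA (the TATA box) and AGGTCA (the half-site of nuclear receptors, retinoic acid receptors among them). No matches overlap.
Loxl4, chr19:42612807-42613056, minus strand: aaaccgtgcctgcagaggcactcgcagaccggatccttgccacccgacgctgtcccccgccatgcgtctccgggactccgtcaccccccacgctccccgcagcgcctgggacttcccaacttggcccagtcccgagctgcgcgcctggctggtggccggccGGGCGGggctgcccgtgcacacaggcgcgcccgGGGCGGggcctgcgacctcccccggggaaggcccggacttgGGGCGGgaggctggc
Tgm3, chr2:130012090-130012339, plus strand: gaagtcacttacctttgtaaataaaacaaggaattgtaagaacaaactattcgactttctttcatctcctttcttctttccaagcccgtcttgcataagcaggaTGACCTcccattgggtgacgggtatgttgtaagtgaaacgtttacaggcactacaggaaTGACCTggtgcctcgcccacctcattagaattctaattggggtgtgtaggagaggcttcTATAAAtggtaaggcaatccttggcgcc
The Loxl4 window was 76% G and C, against a median of 52.4% over 32851 promoter windows, and held 3 GC boxes, the nearest ending 10 bases before the start. It held neither of the other motifs. The Tgm3 window was 44% G and C and held 1 TATA box, which began 28 bases before the start, and 2 half-sites. The first of the 2 annotated Tgm1 windows held 1 half-site and 2 GC boxes, its second window none of the 3 motifs, and both F13a1 windows none of them. Over all windows 12.4% held TATAAA, 32.7% GGGCGG and 14.0% AGGTCA. These matches describe letters in short windows and show no binding.

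Of the crosslinking enzymes with a fold, Tgm2 had the highest ratio of retinoic acid over control, Loxl1 was also higher, and Loxl4 was lower by close to 2-fold. Lox was slightly lower, and Loxl3 and F13a1 differed by little between the arrays. Of the 7 members measured on at least 1 array, Tgm2 and Loxl1 (2) were 2-fold or more higher by the brightest probe set, and 0 were lower by that much; Loxl4 (1) was past 2-fold downward after quantile normalization or with the median over its probe sets. Over all 11884 measured genes, 6.54% were past 2-fold upward and 4.34% past it downward. The median log2 ratio of the 6 members with a fold was −0.064, beside 0.011 over all measured genes.

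**Figure D1:**
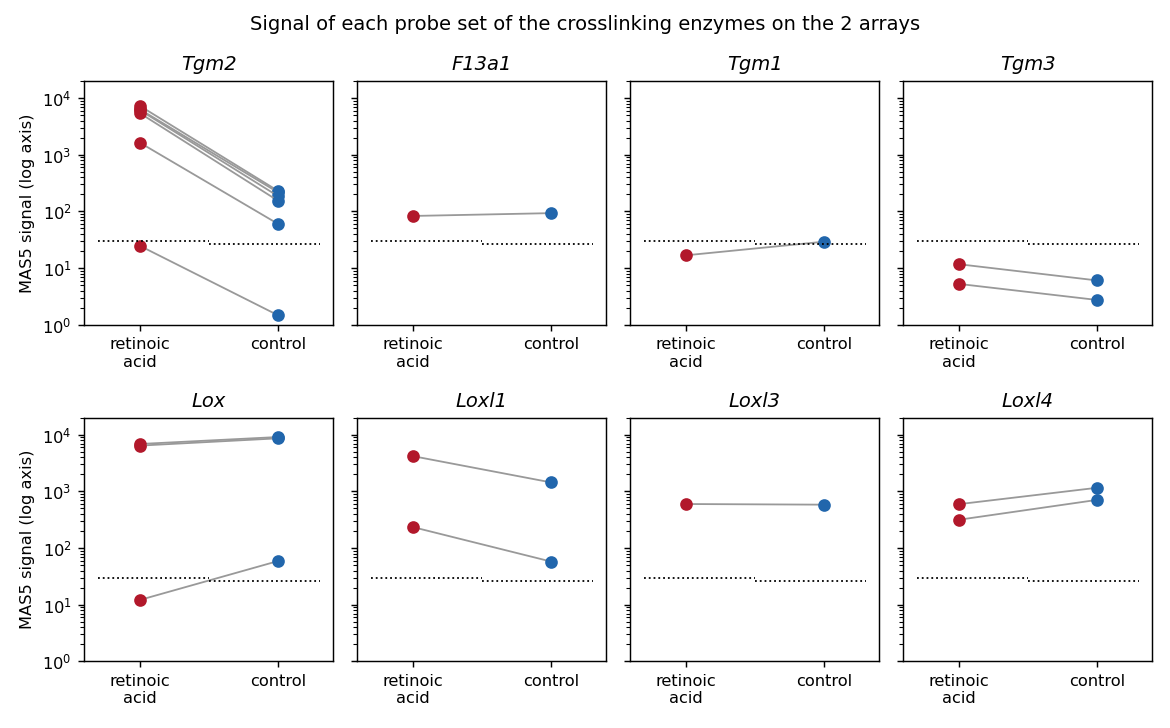
MAS5 signal (log axis) of each of the 18 probe sets of the 8 genes on the retinoic acid array (red, left) and the control array (blue, right), 1 array each. A line joins the values of a probe set and dotted lines mark each array's median signal. Tgm2 and Loxl1 slope down to control, Loxl4 slopes up to control, and Tgm3 lies below the dotted lines on both arrays.

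Tgm2 encodes tissue transglutaminase, an enzyme that also acts inside the cell as a GTP-binding protein and at the cell surface as a partner of integrins. Its brightest probe set (1433428_x_at) had a signal of 7329 with retinoic acid and 230 in control, a ratio of 31.9 (log2 ratio 4.99). The next 3 read 6370, 6179 and 5453 with retinoic acid, against 217, 186 and 154 in control. The fifth (1426004_a_at) read 1643 with retinoic acid and 60.2 in control. All 5 were measured on both arrays and were far higher with retinoic acid, by 27.3-fold to 35.4-fold. Their log2 ratios had an SD of 0.15. The median SD was 0.25 in the 286 genes with 5 or more such probe sets. It was 0.36 in the 9 of these with a mean log2 ratio of at least 1 in size. All 5 Tgm2 probe sets read the same RNA, so their spread is not one between replicates. The sixth (1438942_x_at) read 24.8 with retinoic acid and 1.47 in control, at background on both arrays, and has no fold. The names of 4 of the 6, with _x, mark probes that may bind other transcripts too. The 2 others, with _a, gave 35.4-fold and 27.3-fold.

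In the order of ratios over the 10722 genes measured on both arrays, Tgm2 was number 4 from the top. Genes with only a bound are not in this order. Among them are Rarb (at least 72.8-fold higher) and Cyp26a1 (at least 88.0-fold higher), from the list of retinoic acid targets. Within the order, the next 2 genes above Tgm2 were the netrin gene Ntn1 (44.5-fold), known for axon guidance, and Dio2 (90.3-fold). Dio2 encodes a deiodinase that makes active thyroid hormone. The next 2 below Tgm2 were Tspan13 (23.8-fold), which encodes a tetraspanin, and Pamr1 (23.7-fold). These genes are neighbours in rank only, over 1 array per condition, and Dio2 lies far above Tgm2 in size.

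Of the other transglutaminase members F13a1 alone had a fold. It encodes the A chain of coagulation factor XIII, which crosslinks fibrin and is also made by macrophages and chondrocytes. F13a1 had a signal of 83.1 with retinoic acid and 93.2 in control, 1.12-fold lower. The ratio for Tgm2 was 35.8 times that for F13a1, a value that a constant scaling factor between the arrays would leave as it is. Tgm1, the membrane-bound transglutaminase of keratinocytes, read 16.8 with retinoic acid (not measured) and 29.2 in control, so near the medians that no bound could be set. Tgm3, an epidermal and hair follicle transglutaminase, had 2 probe sets, with signals of 11.7 and 5.26 with retinoic acid and 6.04 and 2.73 in control. Neither was measured on either array. The remaining family members on the array, Tgm4, Tgm5, Tgm6, F13b and Epb42 (5), were also at or below the median on both.

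Cell types in which these enzymes are typical were read from their markers. Of 7 keratinocyte markers Krt10 alone was measured (86.1 with retinoic acid, 89.7 in control), and Krt5, Krt14, Krt1, Lor, Ivl and Flg were not. The signals of the 7, unmeasured ones included, summed to 142 with retinoic acid and 152 in control. Of 10 macrophage markers 5 were above the median on each array and 6 on at least 1, with a median log2 ratio of 0.19. The signals of all 10, unmeasured ones included, summed to 393 with retinoic acid and 259 in control. In these sums Mrc1 (91.5 with retinoic acid, 19.9 in control) and Cd14 (102 with retinoic acid, 56.1 in control) differed most. Cd68 was 1.24-fold and Adgre1 1.06-fold higher, Csf1r was 1.12-fold lower, and Fcer1g, measured in control only, was at least 1.07-fold lower. Ptprc, Cd163, Itgam and Tyrobp were not measured on either. Mrc1, a macrophage and endothelial receptor, was at least 3.45-fold higher, a call lost with the floor at the 70th percentile. The 4 platelet markers went both ways. Pf4 was 2.16-fold higher (73.6 with retinoic acid, 34.1 in control), a call lost with the floor at the 70th percentile of signal, after quantile normalization and with an offset. Itga2b was 1.16-fold higher and Gp1bb 1.72-fold lower, and Gp9 was not measured. The part of such cells in the F13a1 signal was not tested.

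Lox encodes lysyl oxidase, the founding member of its family, which acts on fibrillar collagen and elastin. The probe set 1416121_at had a signal of 6875 with retinoic acid and 9133 in control, 1.33-fold lower. The second, 1448228_at, read 6438 with retinoic acid and 8663 in control, 1.35-fold lower. These lie at the bright end of a scale whose highest signal was 13926. The third Lox probe set, 1437903_at, read 12.1 with retinoic acid (not measured) and 59.1 in control, at least 1.99-fold lower. The 3 probe sets thus had the same direction and unequal sizes, and the part of the bright end in this was not tested. Of the 72 genes that read over 8000 in control, 5 (6.94%) were lower by 2-fold or more and 0 were higher. Over all measured genes 4.34% were lower and 6.54% higher by that much. Genes picked for a high control signal lean to lower ratios, so this band is no neutral background for Lox.

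Loxl1 encodes the lysyl oxidase that is tethered to elastic fibres by fibulin 5. Its brighter probe set, 1451978_at, had a signal of 4208 with retinoic acid and 1444 in control, 2.91-fold higher. The dimmer, 1436063_at, read 236 with retinoic acid and 57.9 in control, 4.07-fold higher. Both probe sets were past 2-fold in the same direction, with log2 ratios of 1.54 and 2.03. By its brighter probe set Loxl1 was number 286 from the top among genes measured on both arrays, with 2.66% of these above it.

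Loxl3 and Loxl4 belong to the branch of the family with scavenger receptor domains. Loxl3 had 1 probe set, with a signal of 599.9 with retinoic acid and 584 in control, 1.03-fold higher, and on the other side of 1 after quantile normalization (log2 ratio −0.013). Loxl4 had a signal of 596 with retinoic acid and 1161 in control by 1421153_at, 1.95-fold lower. Its second probe set, 1450134_at, read 316 with retinoic acid and 709.8 in control, 2.25-fold lower. The 2 Loxl4 values thus stood on either side of 2-fold. By its brighter probe set, 4.34% of the genes measured on both arrays had a lower ratio than Loxl4. The ratio for Loxl1 was 3.87 times that for Lox, 2.84 times that for Loxl3 and 5.68 times that for Loxl4, values that a constant scaling factor would also leave as they are.

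**Figure D2:**
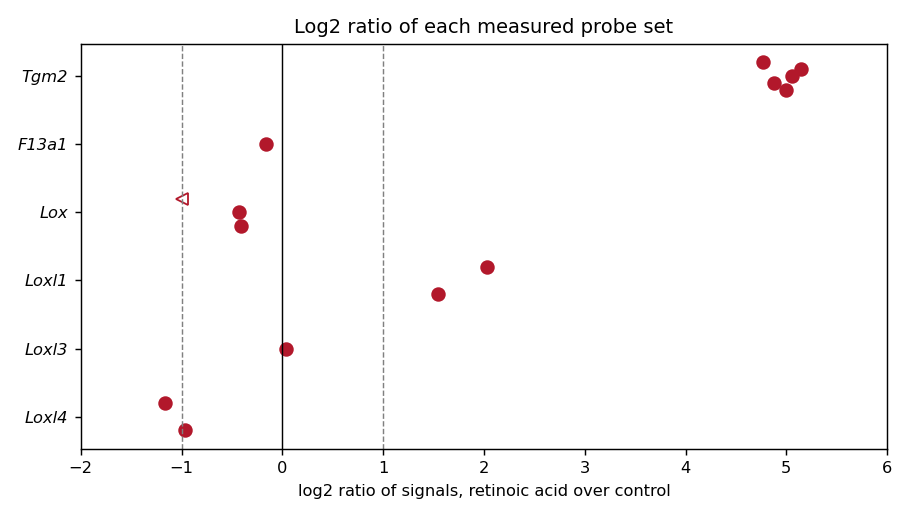
Log2 ratio of signals, retinoic acid over control, for each probe set measured on both arrays (filled) and for the Lox probe set above it in control only (open triangle, a bound). Dashed lines mark 2-fold; the 5 Tgm2 probe sets lie between 4.77 and 5.15, and those of Loxl1 at 1.54 and 2.03.

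**Figure D3:**
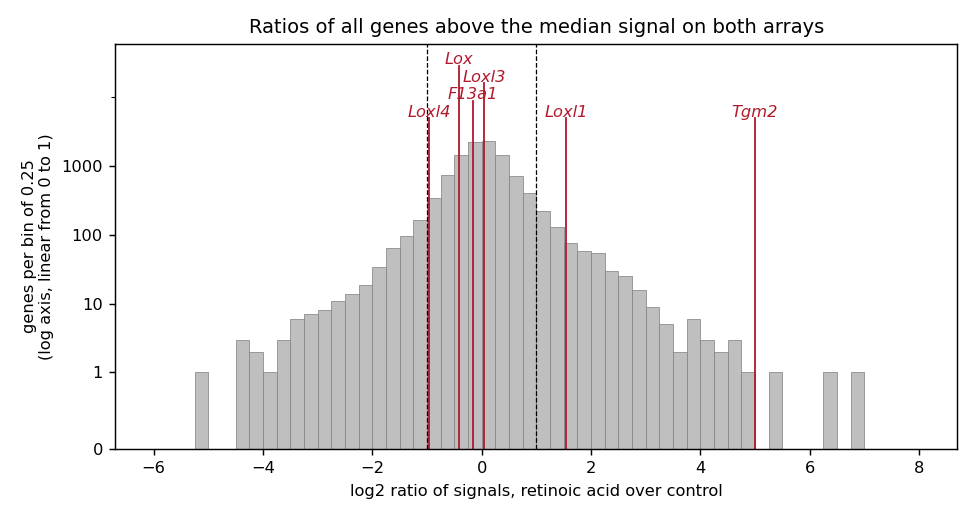
Number of genes per bin of log2 ratio (log axis above 1) for the 10722 genes measured on both arrays, with the 6 members that have a fold marked in red. Tgm2, at 4.99, lies in the sparse upper end, Loxl1 at 1.54 on the upper flank, Loxl4 at −0.96 beside the dashed 2-fold line, and the other 3 in the body.

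The genes that work with these enzymes were read from lists. Over all measured genes 6.54% were past 2-fold upward and 4.34% downward. Each list is short, so its count is a description and no test against those shares. Of 9 measured processing and assembly partners of lysyl oxidases, 1 was past 2-fold upward and 2 downward, and the median log2 ratio was −0.45. The downward count was 3 after quantile or loess normalization. Tll1, a tolloid-like protease related to Bmp1, had a signal of 266 with retinoic acid and 56.7 in control, 4.68-fold higher. Pcolce2, an enhancer of procollagen C-proteinase, had 94.4 with retinoic acid and 1833 in control, 19.4-fold lower. Fmod, which encodes the collagen-binding proteoglycan fibromodulin, was 2.12-fold lower (4132 with retinoic acid, 8768 in control). Bmp1, the protease that activates pro-lysyl oxidase, had 257 with retinoic acid and 202 in control, 1.27-fold higher. Postn (periostin), a scaffold for Bmp1, was 1.95-fold lower, and Fbln5 (fibulin 5), the scaffold for Loxl1, was 1.76-fold lower (606 with retinoic acid, 1069.6 in control). Fbln5 and Loxl1 thus had ratios in opposite directions.

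Lysyl oxidases need copper, which the transporter Atp7a loads in the secretory pathway. Of 6 measured copper supply genes 0 were past 2-fold in either direction, where the shares over all genes were 6.54% upward and 4.34% downward. The median log2 ratio of the 6 was 0.25. Atp7a had a signal of 822 with retinoic acid and 504 in control, 1.63-fold higher. The mitochondrial copper chaperone Cox17 was 1.31-fold and the uptake transporter Slc31a1 1.24-fold higher. Atox1 was 1.14-fold higher, while Ccs was 1.22-fold and Slc31a2 1.08-fold lower.

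Lysyl hydroxylases modify collagen lysines before lysyl oxidases act on them. Plod1, Plod2 and Plod3, their 3 genes, were each within 2-fold. Plod1 had a log2 ratio of −0.0063, Plod2 was 1.19-fold lower and Plod3 1.51-fold lower. In the wider list of collagen lysine and proline modification, 3 of 17 measured genes were past 2-fold downward and 0 upward. Over all measured genes the shares were 4.34% downward and 6.54% upward. The median log2 ratio of the list was −0.32. The count of 3 was 1 with the floor at the 70th percentile of signal in place of the median. P3h2, a prolyl 3-hydroxylase gene, was 4.90-fold lower (77.6 with retinoic acid, 380.2 in control). P4ha3, of a prolyl 4-hydroxylase, was 2.68-fold lower (44.0 with retinoic acid, 118 in control). Colgalt2, of a collagen galactosyltransferase, was at least 2.49-fold lower. Not all of the list was lower: P4ha1, of another prolyl 4-hydroxylase, was 1.55-fold higher (4506 with retinoic acid, 2908 in control).

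The substrates of these enzymes were read in the same way. Of 10 fibrillar collagen and elastin genes 2 were past 2-fold downward and 0 upward, beside 4.34% and 6.54% over all measured genes. The median log2 ratio of the 10 was −0.32. The count of 2 was 1 with that higher floor or with the median signal added to every value as an offset. It was 3 with the median over probe sets. Col11a2 was 3.18-fold and Col5a3 2.36-fold lower, and Col5a1 was 1.71-fold lower. Col1a1 (1.21-fold lower), Col3a1 (1.06-fold lower), Col2a1 (1.29-fold lower) and Eln (1.17-fold higher) were within 2-fold. Among 7 measured substrates of transglutaminases 2 were past 2-fold upward and 0 downward, and the median log2 ratio was 0.74. Nid1, which encodes the basement membrane protein nidogen 1, had a signal of 8081 with retinoic acid and 1195 in control, 6.76-fold higher. Mdk, which encodes the heparin-binding growth factor midkine, had 2195 with retinoic acid and 529 in control, 4.15-fold higher. Anxa1 was 1.85-fold higher, and Fn1, the fibronectin gene, was 1.07-fold lower with signals above 8000 on both arrays (8761 with retinoic acid, 9381 in control).

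Of 7 measured genes for partners of transglutaminase 2 at the cell surface or in its redox control, 1 was past 2-fold upward and 0 downward. Over all measured genes the shares were 6.54% and 4.34%. The median log2 ratio of the 7 was 0.092. Lrp1, an endocytic receptor for the enzyme, was 2.03-fold higher (3433 with retinoic acid, 1688 in control), and within 2-fold after quantile or loess normalization. The count of 1 was 2 with only probe sets unique to a transcript. Pdgfrb was 1.73-fold and the integrin gene Itgb1 1.62-fold higher, and the syndecan gene Sdc4 1.07-fold higher.

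**Figure D4:**
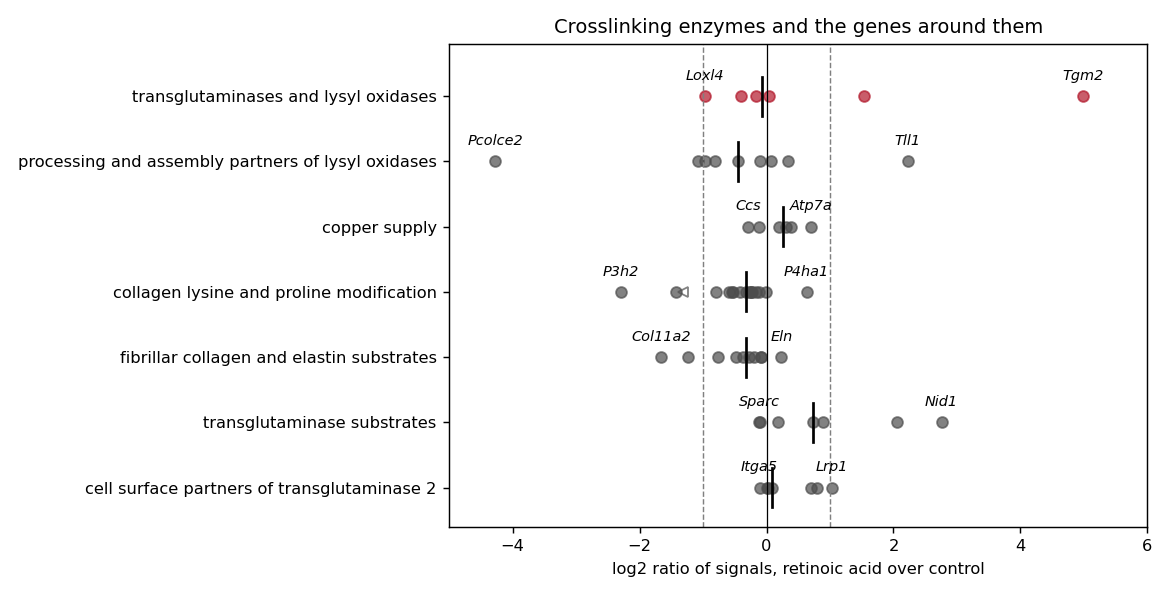
Log2 ratio of signals, retinoic acid over control, for the crosslinking enzymes (red) and the measured genes of 6 related lists (grey). Each point is 1 gene, the open triangle is a bound (Colgalt2), vertical bars are medians and dashed lines mark 2-fold. Pcolce2 lies at −4.28 and Tll1 at 2.23, while every copper supply gene lies between the dashed lines.

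Markers of the cultured cells differed between the arrays beside these results. Of 8 chondrocyte markers, all of them measured on both arrays, 6 were past 2-fold downward and 0 upward. Over all measured genes the shares were 4.34% and 6.54%. Summed signals of the 8 were 15975 with retinoic acid and 38027 in control. Acan, the aggrecan gene, had 157 with retinoic acid and 5066 in control, and Sox9, the transcription factor gene of chondrocytes, 94.8 with retinoic acid and 1024 in control. The markers within 2-fold were Col2a1 (7366 with retinoic acid, 9538 in control, 1.29-fold lower) and Col9a1 (6259 with retinoic acid, 10547 in control, 1.68-fold lower). The superficial zone marker Prg4, the lubricin gene, read 1148 with retinoic acid and 1919.8 in control, 1.67-fold lower. Tnc was 1.47-fold and Erg 1.37-fold lower. All 3 markers of that zone were thus lower, each within 2-fold, with a median log2 ratio of −0.55. Of 5 measured smooth muscle and myofibroblast markers 1 was past 2-fold upward (Myl9, 2.97-fold) and 1 downward (Des, 2.27-fold). The call for Des was lost with the floor at the 70th percentile or an offset. Tagln was 1.99-fold and Acta2 1.37-fold higher, and Cnn1 was 1.65-fold lower. Summed signals of these markers, with Myh11 (not measured) included, were 7247 with retinoic acid and 4559 in control. Of 6 endothelial markers 2 were measured on at least 1 array, and Pecam1, Cdh5, Tek and Vwf were not. In bulk RNA a lower number of cells of a type and less RNA per cell cannot be told apart. The part of cell composition in the ratios of the crosslinking enzymes was not tested.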

How the data were processed

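Total RNA from 2 cultures was labelled with biotin from 100 ng and hybridised to 1 array each, per the labels' protocols. The deposited values are linear intensities, the MAS5 signal of each probe set, as named in the submitters' processing notes; the MAS5 version, scaling target and calls of detection: not given in the sources used here. They were used with no further scaling. Genes were named from the platform annotation: of 45101 probe sets 64 were controls, 34945 had 1 symbol, 932 several and 9160 none, and only those with 1 symbol were used. No genome build is named for the values, so the only positions given are those of the RefSeq promoter windows (GRCm38.p6), and RefSeq's gene order is used only to find neighbours. Of 18193 genes 10722 were above the median on both arrays, 1162 on 1 and 6309 on neither; 151 of the 1162 gave no bound, because the 2 medians differ. Ratios are retinoic acid over control.

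The members and the 15 gene lists were chosen with earlier results of these data known. The text names all members and, per list, up to 3 of the genes with the largest ratio in size. It also names the 2 genes on either side of Tgm2 by ratio and a short fixed list (Efemp2, on it, is not analysed here). Some lesser members of the lists are given with a fold, others only as measured or not, and some are not named. The chromosome neighbours were chosen after the values were seen. The counting step was tested on simulated data. The simulated shifts were large and lay in bright genes, so the test does not cover ratios near 2-fold or shifted genes near the median signal. Ratios were computed in Python 3.11.15 (pandas 2.3.3, numpy 2.4.6), trimmed means with scipy 1.17.1 and the loess with statsmodels 0.14.6, and figures were drawn with matplotlib 3.10.9. With 1 array per group their number limits the precision.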

Additional observations from a re-analysis of the deposited data

How the results depend on the processing

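Of 9 alternatives set out at the start and 2 added after the data were seen (the same floor on each array, and only probe sets without _s or _x in the name), Tgm2 and Loxl1 were the members at least 2-fold higher under 10. With only probe sets unique to a transcript the count was 1, Loxl1, since no Tgm2 probe set has such a name. The count at least 2-fold lower was 1, Loxl4, after quantile normalization and with the median over probe sets, against 0 as reported. The log2 ratio lay between 4.84 and 5.15 for Tgm2, 1.44 and 1.78 for Loxl1, −1.07 and −0.93 for Loxl4, −0.45 and −0.41 for Lox and −0.26 and −0.086 for F13a1. For Loxl3 it lay between −0.013 and 0.044, so its direction is not settled. Of 330 list counts recomputed, 20 moved by more than 1.5 times, all of them small counts. Over all genes 777 were at least 2-fold higher and 516 lower as reported, 2137 and 2106 with no floor, 449 and 260 with the floor at the 70th percentile, and 1101 and 832 at the 30th. No paired analysis was possible because each group has 1 array. With 1 array per group, signals near the median carry little information, which limits Tgm1, Tgm3, F13a1 and the third Lox probe set. The same limit holds for the control signals of the dimmer Loxl1 probe set (57.9) and the fifth Tgm2 probe set (60.2). That of the third Lox probe set was 59.1.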

Other observations

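The protein-coding genes next to Tgm2, Loxl1, Loxl4, Loxl3 and F13a1 on the chromosome were read after the members' values were known, 2 on each side in RefSeq's order. Beside Tgm2, Rprd1b and Tti1 were 1.16-fold and 1.16-fold higher (signals of 509.5 and 201 with retinoic acid, 439 and 173 in control), against 31.9-fold for Tgm2, and no probe set on the array was named for the 2 on its other side alone. Beside Loxl1, Pml, the gene of a nuclear body protein, was 2.99-fold higher (217 with retinoic acid, 72.6 in control), while Stoml1, which lies between Pml and Loxl1, was 1.56-fold lower (92.0 with retinoic acid, 144 in control). The 2 genes on the other side of Loxl1 were not measured. Beside Loxl4, R3hcc1l was 1.29-fold higher, Pyroxd2 1.09-fold lower and Hps1 1.28-fold higher, and Crtac1 was not measured on either array. Beside Loxl3, Dok1 was 1.45-fold and Htra2 1.01-fold higher, Aup1 was 1.12-fold lower, and M1ap was not measured. Beside F13a1, Nrn1 was 1.35-fold lower, Fars2 1.19-fold and Rreb1 1.06-fold higher, and Ly86 was not measured.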
